A study of Cavia porcellus with 6 samples.

Results

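This account follows 36 genes that supply amino acids to the cell and load them onto transfer RNA, listed by symbol as amino acid synthesis, amino acid transport and cytosolic tRNA synthetase genes and regarded as the metabolic output of the transcription factor ATF4. They were chosen by symbol from the count table of the posterior sclera, the collagen-rich outer coat at the back of the eye, of guinea pigs (Cavia porcellus). Of the 36 symbols 35 were found among the 32193 genes of the table, and all 35 were among the 16348 genes tested. Asns, the asparagine synthetase gene, was not analysed here. Among the 35 genes were 9 of amino acid synthesis, 7 of transport, 17 cytosolic synthetases and 2 other ATF4 targets.

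Tissue came from the posterior pole of right eyes at day 28, with 3 libraries of form-deprived animals (FDM) and 3 of controls (NC). Form deprivation covers an eye so that it sees no sharp image and is a standard way of inducing myopia in this species. The sources used here give no genotype, strain, age or treatment of the controls, and the quercetin of the series title is given for none of the 6 libraries. Since only right eyes were sampled, the 6 libraries are treated as 6 animals. The sources do not say whether the animals shared a litter, cage or sampling time, so p-values measure the spread between these 6 libraries.

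ATF4 is translated when the initiation factor eIF2-alpha is phosphorylated. Kinases that do so include PERK, in endoplasmic reticulum (ER) stress, and GCN2, when uncharged tRNA builds up. ATF4 then switches on genes that import amino acids, make serine, proline and asparagine, and charge tRNA. Fibroblasts of collagenous tissue draw heavily on this supply, because collagen is rich in glycine and proline.

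The libraries held 10377397 to 17534982 counts. Those numbered 1 had counts for 12783 (FDM 1) and 14416 genes (NC 1), against 17689 to 20591 in the other 4 libraries. CPM are counts scaled to a common library size. Fibroblast markers (8 of 8 in the table) summed to between 15597 and 60416.5 CPM in FDM and between 5870 and 52771 in NC. These genes are expressed in connective tissue in general and do not identify sclera. Skeletal muscle markers (8 of 9 in the table) summed to between 7173 and 60856 CPM in FDM and between 102.9 and 19883 in NC, where NC 1 had no count of Myh2 or Myh4. Photoreceptor markers (8 of 8) summed to between 225.8 and 11013 CPM in FDM and between 450.7 and 23774 in NC, and FDM 1 had no count of Pde6a, Pde6b or any of 5 melanocyte markers. Both lists varied between libraries of a single group, and the groups' sums overlapped. All 8 muscle markers had positive log2 fold changes (median 1.96) and all 8 photoreceptor markers negative ones (median -1.28). Without NC 2 the photoreceptor markers had 4 positive and 4 negative values and a median of -0.03. Without NC 1 the muscle markers had 7 positive values and 1 negative, with a median of 1.37. The part of both lists in the results below was not tested.

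No gene of the 35 differed between FDM and NC beyond the spread between libraries. In edgeR's quasi-likelihood test 0 of 35 passed an adjusted p of 0.05, where the share of all genes tested that passed was 0%, and every member had an adjusted p of 0.999999. At an unadjusted p below 0.05 the test again gave 0 of 35, against 0.954% of all genes tested. DESeq2 and limma-voom also called 0 of 35, DESeq2 leaving 8 of them without an adjusted p, while DESeq2 called 11 genes in all (0.0673%). For none of the 35 did the 3 FDM libraries lie all above or all below the 3 NC libraries, which was seen for 2.73% and 2.81% of all genes tested. In whole tissue, fewer cells of a type and less RNA per cell cannot be told apart.

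The log2 fold changes of the 35 genes, FDM against NC, ran from -0.79 to 0.97 with a median of 0.13, beside a median of 0.02 over all genes tested. With TMM scaling 26 of the 35 values were positive and 9 negative, where 51.2% and 48.8% of all genes were. With total-count scaling, which moved the median of all genes to -0.23, 12 of the 35 were positive. Relative to the median of all genes 25 of 35 were higher under either scaling, a number that scaling could hardly change because it moves all genes by similar amounts. Leaving out FDM 1 brought the number of positive values to 17 and the median to -0.01, with 14 of 35 above the median of all genes, and leaving out both libraries numbered 1 brought them to 12 and -0.08. The standard errors (SE) had a median of 0.50, against 0.79 over all genes tested, and 21 of the 35 had a 95% interval that lay between -1.5 and 1.5. For these 21 genes the interval is the limit the data set on a difference.

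**Figure D1:**
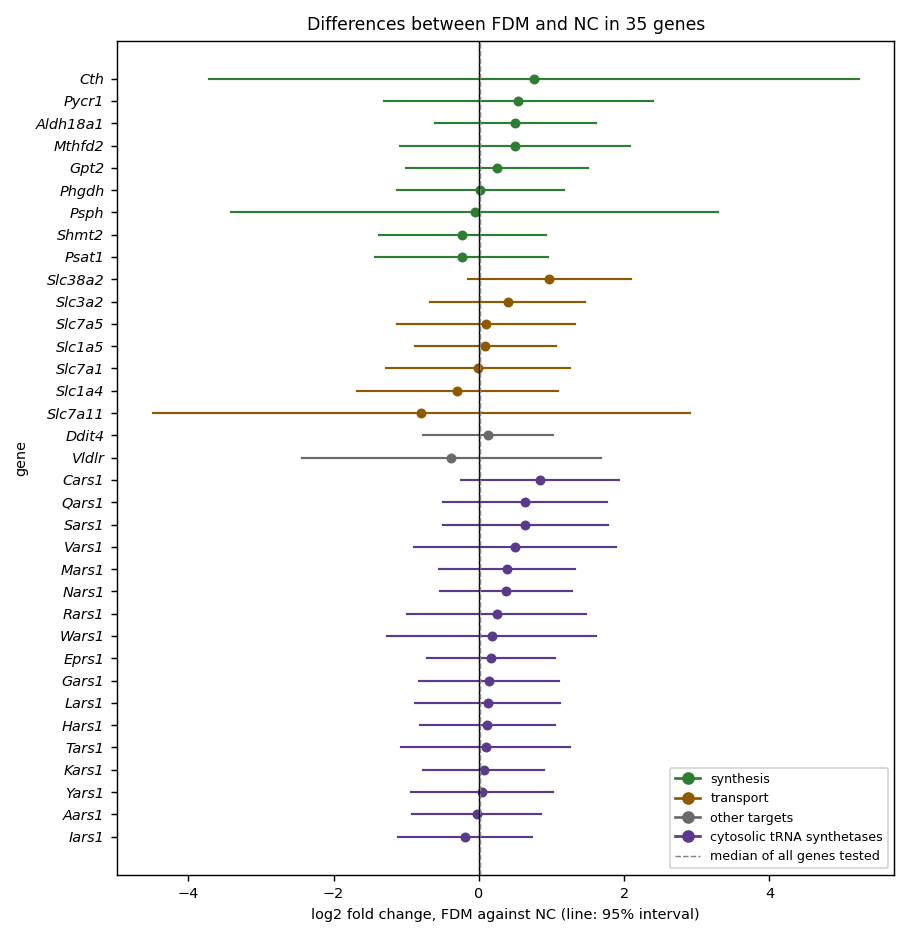
Log2 fold change of each gene, FDM against NC (x axis), with its 95% interval from edgeR's fit as a line, for 35 genes in rows, coloured by role. Every interval crosses 0; Slc38a2 (0.97) and Cars1 (0.84) have the highest values, and Cth, Psph and Slc7a11, which have no count in some library, have the widest intervals.

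The first role is serine synthesis, which branches off glycolysis through the enzymes of Phgdh, Psat1 and Psph. Psat1, the phosphoserine aminotransferase gene and a marker of the ATF4 output, had 46.5, 75.9 and 22.2 CPM in FDM 1, 2 and 3 and 65.8, 36.5 and 68.0 CPM in NC 1, 2 and 3. The scaling uses TMM library sizes. FDM held both the highest and the lowest library, and the groups overlapped over most of their range. The means of Psat1 were 48.2 ± 26.9 CPM (FDM) and 56.8 ± 17.6 CPM (NC; SD, n = 3), or -0.24 ± 0.53 (SE) as a log2 fold change. The 95% interval ran from -1.42 to 0.95, and without FDM 3 the value was 0.05.

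Phgdh, whose enzyme opens the pathway, had means of 55.5 ± 26.0 CPM (FDM) and 54.8 ± 22.8 CPM (NC; SD over 3 libraries each). Its log2 fold change was 0.02 ± 0.51 (SE), with a sign that turned under RLE, upper-quartile and total-count scaling. Its highest values were 80.1 CPM in FDM 1 and 81.1 in NC 1. Psph, the phosphatase gene of the last step, had no count in FDM 1, which allows up to 0.296 CPM (3 counts), against 17.8 and 10.8 CPM in FDM 2 and FDM 3 and 8.83 to 11.3 CPM in NC. This limit covers counting error only. FDM 1 thus stood apart from the other 5 libraries, and the log2 fold change of -0.06 ± 1.49 (SE) became 0.52 without it.

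Serine feeds folate metabolism in mitochondria through Shmt2, a serine hydroxymethyltransferase gene, and Mthfd2, a methylenetetrahydrofolate dehydrogenase gene. Mthfd2 had 38.4, 15.2 and 20.6 CPM in FDM 1, 2 and 3 and 7.93, 12.7 and 31.9 CPM in NC 1, 2 and 3. NC 3 lay above FDM 2 and FDM 3, so the groups overlapped. The log2 fold change of Mthfd2 was 0.50 ± 0.70 (SE), with 95% bounds of -1.09 and 2.08, and it was 0.02 without FDM 1 and -0.38 without both libraries numbered 1. Shmt2 had 17.9 CPM in FDM 1 against 30.8 to 56.0 CPM in the other 5 libraries, and a log2 fold change of -0.23 ± 0.51 (SE) that was 0.09 without FDM 1.

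Proline, an abundant residue of collagen, is made from glutamate by the enzymes of Aldh18a1, the first step, and Pycr1, a pyrroline-carboxylate reductase of mitochondria. Aldh18a1 had the smallest unadjusted p of the synthesis genes, 0.336 in edgeR's test. Its libraries held 56.1, 34.0 and 93.9 CPM in FDM 1, 2 and 3 and 28.9, 49.3 and 51.8 CPM in NC 1, 2 and 3. The library FDM 3 was the highest and FDM 2 lay inside the NC range. The log2 fold change of 0.50 ± 0.49 (SE) was -0.02 without FDM 3.

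Pycr1 had 15.8, 16.5 and 29.1 CPM in FDM 1, 2 and 3 and 3.42, 28.2 and 10.4 CPM in NC 1, 2 and 3. NC 2 lay close to FDM 3, and NC 1, with 35 counts, was the lowest. The log2 fold change of Pycr1 was 0.54 ± 0.82 (SE), with 95% bounds of -1.31 and 2.39, and it was 0.08 without NC 1 and 1.52 without NC 2. Aldh18a1 and Pycr1 were both highest in FDM 3, a library in which the serine gene Psat1 was at its lowest.

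Of the remaining synthesis genes, Gpt2 encodes a mitochondrial alanine aminotransferase and Cth the cystathionine gamma-lyase that makes cysteine. Gpt2 had 206.7 and 205.7 CPM in FDM 1 and FDM 2 but 61.3 in FDM 3, against 76.2 to 183.6 CPM in NC. For Gpt2 the log2 fold change was 0.25 ± 0.55 (SE), and -0.06 with total-count scaling. Cth had 56, 57 and 14 counts in FDM and 0, 77 and 29 counts in NC, and its log2 fold change of 0.76 ± 1.98 (SE) has 95% bounds of -3.71 and 5.23.

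Transporters form the second role. Slc38a2, also known as SNAT2, carries small neutral amino acids into cells with sodium and is induced when amino acids run short. It had the smallest unadjusted p of all 35 genes, 0.0818 in edgeR's test. Slc38a2 had 163.0, 98.0 and 171.6 CPM in FDM 1, 2 and 3 and 37.8, 64.3 and 118.4 CPM in NC 1, 2 and 3. The libraries FDM 1 and FDM 3 lay above every NC library, while NC 3 lay above FDM 2, so the groups overlapped. The means were 144.2 ± 40.3 and 73.5 ± 41.1 CPM (SD, n = 3). This is 0.97 ± 0.50 (SE) on the log2 scale, or 1.96-fold with 95% bounds of 0.901 and 4.27. The value stayed positive in every alternative run, between 0.50 without both libraries numbered 1 and 1.40 without NC 3, where edgeR's test gave an unadjusted p of 0.0299 and, adjusted, 0.999983.

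Slc7a11 encodes the light chain of system xc-, which takes up cystine in exchange for glutamate, and Slc3a2 the heavy chain that carries it and other light chains to the membrane. Slc7a11, a marker of the ATF4 output, had no count in FDM 1, which allows up to 0.296 CPM (3 counts), 14.7 CPM in FDM 2 and 2.07 CPM in FDM 3. In NC it had 7.04, 9.68 and 12.4 CPM. FDM 2 was the highest of the 6 libraries and FDM 1 the lowest, so NC lay inside the FDM range. The log2 fold change was -0.79 ± 1.64 (SE), with 95% bounds of -4.49 and 2.91. It was -0.21 without FDM 1 and -3.21 without FDM 2, so a single library moved it by more than its standard error.

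Slc3a2 had 286.7, 231.6 and 98.9 CPM in FDM 1, 2 and 3 and 176.0, 136.2 and 156.9 CPM in NC 1, 2 and 3. Here FDM 1 and FDM 2 lay above and FDM 3 below all NC libraries. For Slc3a2 the log2 fold change was 0.40 ± 0.47 (SE), and 0.08 without FDM 1. Slc7a5, the light chain LAT1 that pairs with Slc3a2 to import leucine and other large neutral amino acids, was likewise lowest in FDM 3. It had 172.9, 205.9 and 59.8 CPM in FDM and 195.9, 82.4 and 133.2 CPM in NC, with a log2 fold change of 0.09 ± 0.54 (SE) that turned negative with total-count scaling (-0.15).

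Slc1a4 and Slc1a5 encode the sodium-dependent neutral amino acid exchangers ASCT1 and ASCT2, and Slc7a1 the cationic amino acid transporter CAT1. Slc1a4 had 11.2, 28.2 and 24.7 CPM in FDM 1, 2 and 3 and 16.1, 42.0 and 20.8 CPM in NC 1, 2 and 3. Both libraries numbered 1 were its lowest, and NC 2 its highest. The log2 fold change of Slc1a4 was -0.30 ± 0.61 (SE). Slc1a5 and Slc7a1 had 0.09 ± 0.43 and -0.01 ± 0.56 (SE), with 95% intervals of -0.88 to 1.06 and -1.28 to 1.26.

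**Figure D2:**
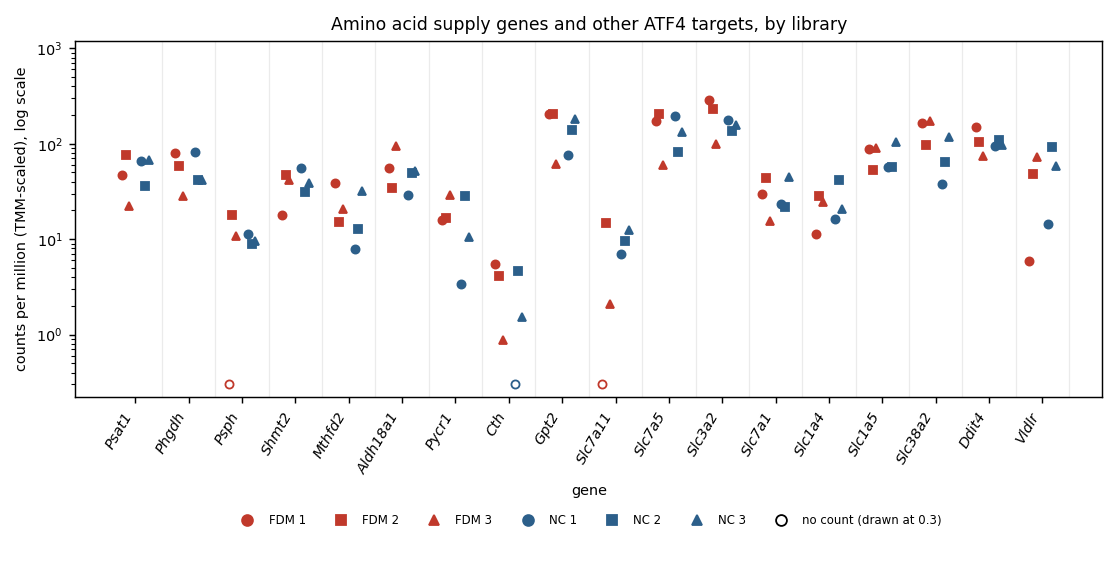
TMM-scaled CPM (y axis, log scale) of 18 amino acid supply genes and other ATF4 targets in each of the 6 libraries, FDM in red and NC in blue, with an open symbol where a library had no count. No gene separates the groups; Slc38a2 has its FDM libraries at 98.0 to 171.6 CPM and its NC libraries at 37.8 to 118.4.

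A further pair of listed ATF4 targets has other functions. Ddit4 encodes REDD1, an inhibitor of the growth kinase complex mTORC1, which senses amino acids. It had 149.8, 104.4 and 74.5 CPM in FDM 1, 2 and 3 and 93.5, 110.2 and 97.5 CPM in NC 1, 2 and 3. The NC libraries lay close together inside the FDM range, and the log2 fold change was 0.13 ± 0.40 (SE). Vldlr encodes the very low density lipoprotein receptor. It had 5.91, 48.4 and 73.3 CPM in FDM and 14.5, 93.1 and 58.3 CPM in NC, so both libraries numbered 1 were far below the other 4. Its log2 fold change of -0.38 ± 0.90 (SE) was 0.14 without FDM 1 and -1.13 without FDM 3.

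Aminoacyl-tRNA synthetases, the third role, join each amino acid to its tRNA before translation. The genes of the 17 cytosolic enzymes listed had log2 fold changes from -0.19 to 0.84 with a median of 0.17, and SEs of 0.37 to 0.64. Of the 17 values 15 were positive with TMM, RLE or upper-quartile scaling and 6 with total-count scaling. Relative to the median of all genes 15 of 17 were higher under each of these scalings. Scaling moves all genes by similar amounts, so it could hardly change this number. Without FDM 1 only 6 of 17 were above the median of all genes, and without both libraries numbered 1 it was 7 of 17. The count of positive values was 6 without FDM 1, where the median was -0.02, and 5 without both libraries numbered 1, where it was -0.08. In edgeR's test 0 of the 17 had an unadjusted p below 0.05.

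Cars1, the cysteinyl-tRNA synthetase gene, had the smallest unadjusted p of the synthetases, 0.115 in edgeR's test. It had 129.7, 59.0 and 45.9 CPM in FDM 1, 2 and 3 and 52.4, 36.8 and 41.6 CPM in NC 1, 2 and 3. FDM 1 and FDM 2 lay above every NC library and FDM 3 within their range. Its means were 78.2 ± 45.1 and 43.6 ± 8.0 CPM (SD, n = 3), which is 0.84 ± 0.48 (SE) on the log2 scale, or 1.79-fold with 95% bounds of 0.841 and 3.82. It was 0.27 with FDM 1 left out. With FDM 3 left out it was 1.06, where edgeR's unadjusted p was 0.0481 and its adjusted p 0.99983.

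Qars1, the glutaminyl-tRNA synthetase gene, had 304.6, 246.9 and 88.0 CPM in FDM 1, 2 and 3 and 144.8, 122.5 and 143.8 CPM in NC 1, 2 and 3. The NC libraries lay within a narrow band, with FDM 1 and FDM 2 above it and FDM 3 below it. The log2 fold change was 0.64 ± 0.50 (SE), 0.29 without FDM 1 and 0.95 without FDM 3, where edgeR's unadjusted p was 0.0343 and the adjusted p 0.99983.

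Sars1, the seryl-tRNA synthetase gene, had 385.4, 169.7 and 115.6 CPM in FDM 1, 2 and 3 and 154.8, 146.9 and 129.8 CPM in NC 1, 2 and 3. Its value in FDM rested on FDM 1, and FDM 3 was the lowest of the 6 libraries. Its log2 fold change of 0.64 ± 0.50 (SE) was -0.01 without FDM 1.

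Vars1 and Wars1, the valyl- and tryptophanyl-tRNA synthetase genes, had the widest ranges within FDM among the synthetases, 5.99-fold and 4.59-fold. Vars1 had 370.8, 182.4 and 61.9 CPM in FDM 1, 2 and 3 and 196.1, 106.7 and 132.8 CPM in NC 1, 2 and 3. Wars1, whose gene is also induced by interferon-gamma, had 731.9, 436.2 and 159.6 CPM in FDM and 585.6, 236.3 and 352.9 CPM in NC. For both genes FDM 1 was the highest and FDM 3 the lowest of all libraries. Their log2 fold changes were 0.50 ± 0.62 and 0.18 ± 0.64 (SE).

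The smallest SEs belonged to Kars1 and Eprs1, whose enzymes join the multi-synthetase complex. Kars1, the lysyl-tRNA synthetase gene, had 108.4, 113.7 and 72.6 CPM in FDM and 103.8, 85.1 and 92.9 CPM in NC. Its log2 fold change of 0.06 ± 0.37 (SE) had 95% bounds of -0.77 and 0.90, or 0.585-fold and 1.87-fold. Eprs1, which encodes the joined glutamyl- and prolyl-tRNA synthetase and so charges the proline tRNA used for collagen, ranged from 106.2 to 173.8 CPM over the FDM libraries and from 107.1 to 150.9 CPM over the NC libraries. For Eprs1 the log2 fold change was 0.17 ± 0.39 (SE), with bounds of -0.71 and 1.05. Further members of the complex, Iars1, Lars1, Mars1 and Rars1 for isoleucine, leucine, methionine and arginine, had log2 fold changes of -0.19 ± 0.41, 0.12 ± 0.44, 0.38 ± 0.41 and 0.24 ± 0.55 (SE).

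Gars1, the glycyl-tRNA synthetase gene, serves the most frequent residue of collagen. It had 164.6, 98.0 and 78.3 CPM in FDM and 119.7, 75.4 and 114.8 CPM in NC, with a log2 fold change of 0.14 ± 0.43 (SE). The groups overlapped. Aars1 for alanine, Hars1 for histidine, Nars1 for asparagine, Tars1 for threonine and Yars1 for tyrosine had log2 fold changes of -0.03 ± 0.39, 0.12 ± 0.41, 0.37 ± 0.40, 0.10 ± 0.52 and 0.05 ± 0.43 (SE). Tars1, with 30.3, 23.6 and 59.6 CPM in FDM 1, 2 and 3, was with Eprs1 and Iars1 among the 3 synthetases in which FDM 3 exceeded FDM 1.

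**Figure D3:**
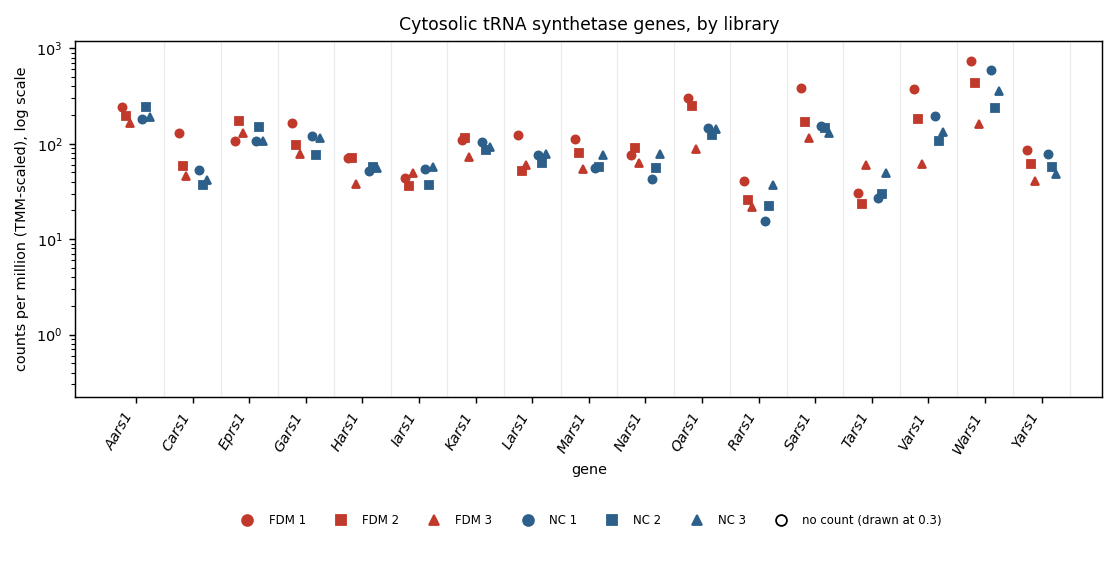
TMM-scaled CPM (y axis, log scale) of 17 cytosolic tRNA synthetase genes in each of the 6 libraries, FDM in red and NC in blue. FDM 1 is the highest library for 11 of the 17 genes and FDM 3 the lowest for 9, and no gene separates the groups.

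The FDM libraries differed among themselves in these genes. FDM 1 was the highest of the 6 libraries for 16 of the 35 genes and FDM 3 the lowest for 16. Among the 17 synthetases FDM 1 was the highest for 11 and FDM 3 the lowest for 9. FDM 1 exceeded FDM 3 in 14 of 17 synthetases (82.4%), against 37.7% of all genes tested, and in 9 of the 18 other members (50%). The median log2 ratio of FDM 1 over FDM 3 was 1.05 for the synthetases and -0.58 for all genes tested. All genes tested included genes with no count in FDM 1, which had counts for 12783 genes against 18675 in FDM 3. Every synthetase had counts in both libraries, and the sets were not matched for level. Within NC the synthetases lay closer, with median log2 ratios between libraries of -0.29 to 0.24. These comparisons set single libraries side by side and carry no test. As a sum the 35 genes held 4501, 3414 and 2221 CPM in FDM 1, 2 and 3 and 2998, 2547 and 2965 CPM in NC 1, 2 and 3. As a share of all counts, without TMM scaling, these were 0.379%, 0.315% and 0.219% in FDM and 0.295%, 0.305% and 0.325% in NC. The order within FDM was thus the same on both scales. In FDM 1, 2 and 3 the skeletal muscle markers summed to 56200, 60856 and 7173 CPM and the photoreceptor markers to 225.8, 1395 and 11013 CPM, and their part in this order was not tested.

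The spread within FDM was wide: 25 of the 35 genes had more than a 2-fold range among the 3 FDM libraries, and 11 of 35 among the 3 NC libraries. For 34 of the 35 genes the range within FDM exceeded the difference between the group means on the log2 scale. The range within NC did so for 31 of 35. The shares of all genes tested with such ranges were not computed. A different measure, the mean log2 CPM of a library over all genes tested, had an SD of 0.67 among the FDM libraries and 0.39 among the NC libraries. For the 35 members these SDs were 0.26 and 0.21. Such an SD compares library means and is not a range of single genes. FDM 1 had the lowest mean over all genes, 2.89, and counts for the fewest genes, 12783.

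**Figure D4:**
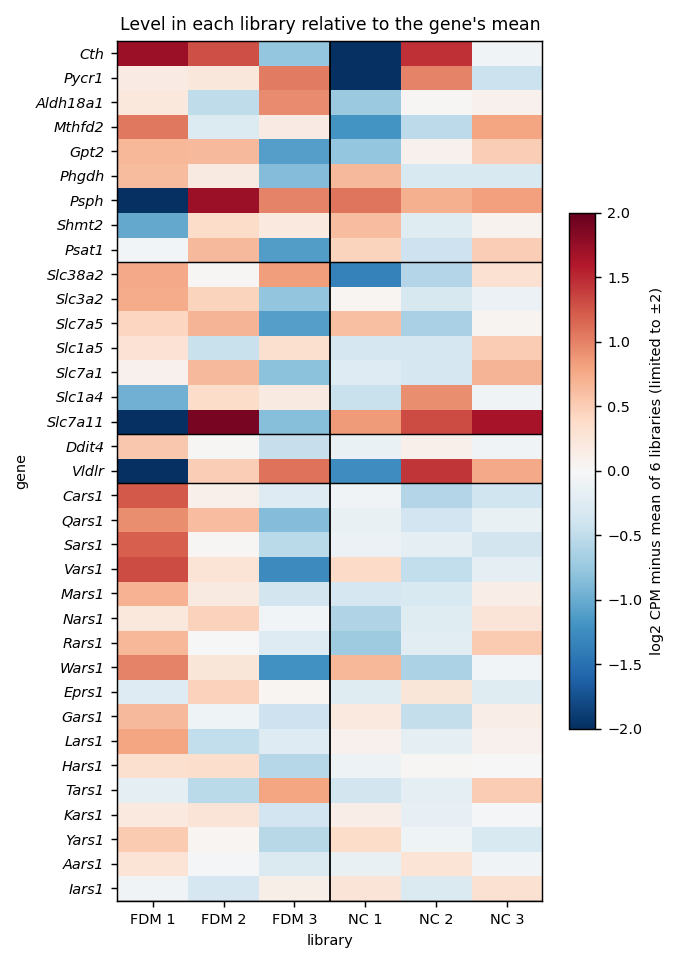
Log2 CPM of each of 35 genes (rows, grouped by role and ordered by log2 fold change within a role) in each library (columns), relative to the gene's mean over 6 libraries, with colours limited at ±2. Most synthetase rows are red in FDM 1 (14 of 17 above the gene's mean) and blue in FDM 3 (14 of 17 below it). NC 2 is also below the mean in 14 of 17, with a median deviation of -0.23 against -0.37 in FDM 3. Among the other rows NC 1 is far below the mean in some, such as Cth (-3.63).

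The mitochondrial tRNA synthetases, separate enzymes encoded in the nucleus that charge tRNA for mitochondrial translation, gave a comparison within the same reaction. Of 17 listed 15 were tested, 5 with positive and 10 with negative log2 fold changes and a median of -0.15, and 0 had an unadjusted p below 0.05 in edgeR's test. For 11 amino acids both enzymes were tested as separate genes, and in 8 of these the cytosolic gene had the higher log2 fold change. The medians over these pairs were 0.18 for the cytosolic and -0.23 for the mitochondrial genes, and the difference was not tested. Without FDM 1 the medians of the full lists were -0.02 for the 17 cytosolic and -0.06 for the 15 mitochondrial genes. Aars2, Mars2, Wars2 and Yars2 had no count in FDM 1. Aars2 had 7.44 and 8.66 CPM in FDM 2 and FDM 3 and 27.1, 27.5 and 8.96 CPM in NC. All FDM libraries lay below all NC libraries, FDM 3 and NC 3 by a small margin, with a log2 fold change of -1.98 ± 1.39 (SE). Nars2 lay at 5.27 to 7.72 CPM (FDM) and 1.96 to 4.05 CPM (NC), with a log2 fold change of 1.31 ± 1.34 (SE). For Nars2 every FDM library lay above every NC library. Separation in either direction was seen for 2.73% and 2.81% of all genes tested.

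**Figure D5:**
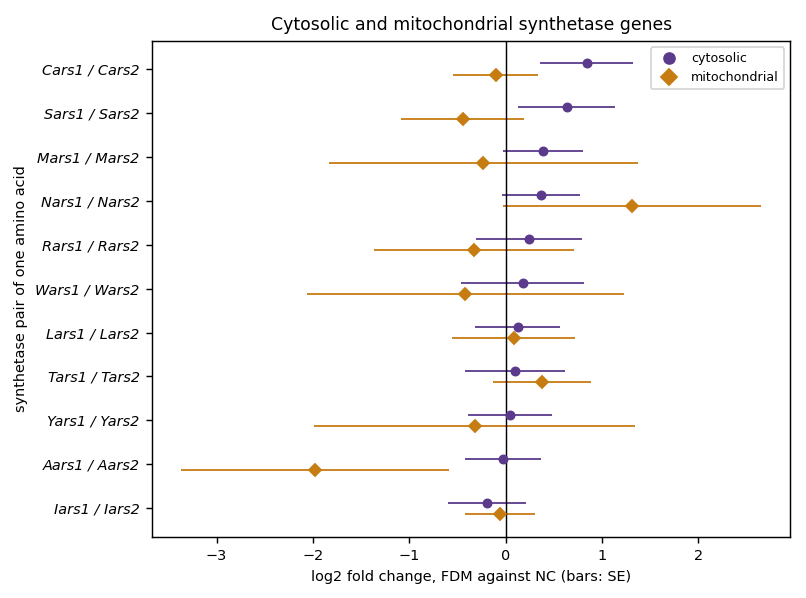
Log2 fold change, FDM against NC (x axis), of the cytosolic (circles) and the mitochondrial (diamonds) synthetase gene of the same amino acid, with SE as bars, for 11 pairs in rows. The cytosolic value is the higher in 8 pairs, and the mitochondrial genes have the wider bars, up to an SE of 1.67 for Yars2.

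The partners of the cytosolic synthetases, the aspartyl- and phenylalanyl-tRNA synthetase genes and the scaffold genes Aimp1, Aimp2 and Eef1e1, had 3 positive and 3 negative values of 6 tested, with a median of 0.18 and 0 at an unadjusted p below 0.05 in edgeR's test. Their median was -0.16 without FDM 1 and -0.17 without FDM 2, and -0.07 with total-count scaling. Aimp1 had 240.4, 98.5 and 46.8 CPM in FDM 1, 2 and 3 and 113.2, 64.8 and 70.3 CPM in NC. FDM 1 was its highest library and FDM 3 its lowest, and the log2 fold change was 0.64 ± 0.59 (SE), or -0.19 without FDM 1. Aimp2 had 0.49 ± 0.58, or -0.10 without FDM 2.

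Upstream, 16 regulators of the ATF4 arm had 12 positive and 4 negative log2 fold changes with TMM scaling, and 9 and 7 with total-count scaling, with medians of 0.40 and 0.17. Without FDM 3 they had 9 positive and 7 negative values and a median of 0.11. Atf4 itself, whose product is controlled mainly in translation, had 820.8, 516.9 and 419.3 CPM in FDM 1, 2 and 3 and 563.1, 588.0 and 526.8 CPM in NC. Its log2 fold change was 0.07 ± 0.50 (SE). The NC libraries lay inside the FDM range, with FDM 1 the highest and FDM 3 the lowest. Of the 16 regulators 2, Atf3 and Ddit3, had an unadjusted p below 0.05 in edgeR's test, where 0.661% of all genes were higher at that level, and 0 passed after adjustment. Ddit3, which encodes the stress factor CHOP, had 70.7, 20.1 and 49.1 CPM in FDM and 8.90, 17.1 and 16.7 CPM in NC, all FDM libraries above all NC libraries, with a log2 fold change of 1.71 ± 0.60 (SE). Atf3, a stress-induced transcription factor gene, had 166.2, 31.7 and 528.1 CPM in FDM and 10.5, 13.6 and 25.3 CPM in NC. All its FDM libraries lay above NC, with a log2 fold change of 3.88 ± 0.96 (SE), or 2.53 without FDM 3, and it was among the 11 genes DESeq2 called (adjusted p = 0.00501). FDM libraries all above NC libraries were seen for 2 of these 16 regulators, against 2.73% of all genes tested. FDM 3, where Atf3 was highest, held the lowest value of 9 of the 17 synthetases.

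Beyond the listed genes, 23 other genes of amino acid metabolism had 11 positive and 12 negative values with a median of -0.14. Mat2a, which makes the methyl donor S-adenosylmethionine, lay between 185.4 and 289.9 CPM in the FDM libraries and between 288.4 and 489.7 CPM in the NC libraries. The groups overlapped narrowly, with a log2 fold change of -0.64 ± 0.45 (SE). Asl, the argininosuccinate lyase gene of arginine synthesis, had 35.6, 35.7 and 31.4 CPM in FDM and 11.4, 25.9 and 24.7 CPM in NC. Its log2 fold change was 0.73 ± 0.51 (SE). All its FDM libraries lay above all NC libraries, which was seen for 1 of these 23 genes and 2.73% of all genes tested. With 1 library left out that median lay between -0.32 and -0.02. In edgeR's test 0 genes of this list or of the 20 other transporters tested had an unadjusted p below 0.05, while DESeq2 gave Slc6a6 an unadjusted p of 0.0471 and an adjusted p of 0.999867.

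The other transporters had 8 positive and 12 negative values with a median of -0.23. Without FDM 1, where 22 passed the filter, they had 12 positive and 10 negative values and a median of 0.22. Slc38a3, a glutamine transporter, and Slc6a6, the taurine transporter, stood at -1.16 ± 0.58 and -1.47 ± 0.76 (SE) on the log2 scale. With NC 2 left out they were at -0.51 and -0.47. Slc38a3 had 331.9 CPM and Slc6a6 563.1 CPM in NC 2, the highest of the 6 libraries for both. NC 2 was also the library with the highest sum of photoreceptor markers, 23774 CPM, and the part of retinal RNA in these values was not tested.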

How the data were processed

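The authors deposited raw counts of reads for each gene, in 1 table of 6 columns. The submitters' processing notes name Trimmomatic, STAR and HTSeq. Versions, strand setting and genome build were not given in the sources used here. Overlapping and antisense genes may therefore share reads. No coordinates or sequences are printed.

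Counts were tested with edgeR 4.0.16 in R 4.3.3 (filterByExpr, TMM, robust quasi-likelihood test, group as the only term, Benjamini-Hochberg adjustment over 16348 genes). Alternatives used limma 3.58.1 and DESeq2 1.42.0, and plots matplotlib 3.10.9. The code was tested on data simulated with less spread between libraries than was found here. That run checks the code and does not measure the power of this comparison. SE is the absolute log2 fold change over the square root of F, and 95% intervals use the fit's degrees of freedom. The heat map shows log2 CPM (prior count 2). The biological coefficient of variation was 0.933. With 3 against 3 libraries a two-sided exact permutation test cannot go below 0.1.

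The members and lists were chosen with earlier results of these data known. By rule, values in every library were given for the marker genes, any member whose groups did not overlap and the 3 members of smallest unadjusted p in each role. From each pathway list, genes with an unadjusted p below 0.05 and the 2 of smallest p were named. Other genes given with library values, such as Slc7a5, Vars1, Wars1, Kars1, Gars1 and Atf4, were chosen after their values were seen.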

Additional observations from a re-analysis of the deposited data

How the results depend on the processing

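The count of 0 members called held under all alternatives run, which were scaling by total counts, RLE or upper quartile, testing without a filter or with 1 CPM in 3 libraries, DESeq2, limma-voom, estimation without robustness, the replicate number as a block, each library left out in turn and both libraries numbered 1 left out. The count of 0 genes called over the whole table held under these too, except that DESeq2 called 11, all higher in FDM. The median log2 fold change of the 35 members, 0.13, was -0.14 with total-count scaling, where the median of all genes was -0.23, and between -0.01 and 0.27 with 1 library left out. With the replicate number as a block 0 members were called, the median was 0.07 and the sign changed for Phgdh (-0.031), Slc7a5 (-0.015). Deviations of same-numbered libraries correlated at 0.0951, 0.0335 and -0.152 over genes, so the numbers were not taken as pairs.

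Of the 35 members 8 kept the sign of their log2 fold change under all of these alternatives. These were Slc38a2, Cars1, Qars1, Slc3a2, Nars1, Pycr1, Slc7a11 and Iars1. The sign changed for 17 members without FDM 1 and for 11 without NC 2, against 5 or 6 without any other library; the cause was not tested. With total-count scaling it changed for Phgdh (-0.24), Gpt2 (-0.061), Slc7a5 (-0.15), Slc1a5 (-0.16), Ddit4 (-0.16), Eprs1 (-0.093), Gars1 (-0.13), Hars1 (-0.16), Kars1 (-0.19), Lars1 (-0.15), Rars1 (-0.048), Tars1 (-0.14), Wars1 (-0.085), Yars1 (-0.22). With RLE scaling it changed for Phgdh (-0.0098). With upper-quartile scaling it changed for Phgdh (-0.017). With DESeq2 it changed for Phgdh (-0.0098). Without a filter it changed for Phgdh (-0.039), Kars1 (-0.0053), Yars1 (-0.020). With limma-voom it changed for Phgdh (-0.032), Slc7a5 (-0.0032), Lars1 (-0.0026). Without both libraries numbered 1 it changed for Phgdh (-0.049), Psph (0.54), Shmt2 (0.28), Mthfd2 (-0.38), Cth (-0.44), Gpt2 (-0.37), Slc1a5 (-0.23), Ddit4 (-0.32), Gars1 (-0.19), Hars1 (-0.16), Kars1 (-0.030), Lars1 (-0.41), Mars1 (-0.081), Rars1 (-0.39), Sars1 (-0.056), Vars1 (-0.070), Wars1 (-0.076), Yars1 (-0.14). With 1 library left out the log2 fold changes ran as follows for genes whose sign changed: Psat1 -0.73 to 0.054, Phgdh -0.34 to 0.41, Psph -0.87 to 0.52, Shmt2 -0.48 to 0.092, Aldh18a1 -0.020 to 0.79, Gpt2 -0.037 to 0.56, Slc7a5 -0.24 to 0.43, Slc7a1 -0.41 to 0.31, Slc1a4 -0.56 to 0.18, Slc1a5 -0.095 to 0.35, Ddit4 -0.17 to 0.27, Vldlr -1.13 to 0.18, Aars1 -0.19 to 0.081, Eprs1 -0.041 to 0.33, Gars1 -0.23 to 0.29, Hars1 -0.035 to 0.29, Kars1 -0.057 to 0.18, Lars1 -0.37 to 0.35, Rars1 -0.073 to 0.56, Sars1 -0.013 to 0.89, Tars1 -0.46 to 0.34, Vars1 -0.25 to 0.88, Wars1 -0.40 to 0.58, Yars1 -0.25 to 0.25, Aimp1 -0.19 to 0.98, Aimp2 -0.10 to 0.70. Cth, Psph and Slc7a11 had 0 counts in a library, at depths where the other library numbered 1 held 56, 116 and 72 counts, and the other members had counts in all 6.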
